A study of Mus musculus with 8 samples.

Results

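The 9 genes described here encode enzymes and carriers that bring pyruvate into the citrate cycle, turn the cycle and take citrate out of it, and they were followed in white adipocytes that had or lacked YAP and TAZ. They are Pdha1, Pdk4, Cs, Idh3a, Ogdh, Suclg1, Fh1, Mdh2 and Slc25a1. They were picked out by symbol, and all 9 were found among the 30387 genes of the table and passed the filter on low values. White adipocytes were isolated from epididymal fat and their total RNA was sequenced. The mice were wild-type littermates (WT) or Ad-Yap/Taz-KO mice (KO), which carry floxed Yap and Taz alleles and a Cre recombinase driven by the adiponectin promoter, so that both genes are deleted in adipocytes and not in other cells of the fat pad. They had been fed standard chow, written NC in the labels and SD here, or a high-fat diet (HFD) for 4 weeks, from an age of 5 weeks by the description of the data set and from a later age by the study's methods. Each of the 4 groups holds 2 libraries, 8 in all.

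Pyruvate made by glycolysis enters the mitochondrion and is turned into acetyl-CoA by the pyruvate dehydrogenase complex, which its kinases switch off by phosphorylation. The citrate cycle then oxidizes acetyl-CoA and passes the electrons to the respiratory chain. In white adipocytes a large part of the citrate leaves the mitochondrion and is split in the cytosol to give the acetyl-CoA from which fatty acids are built, and pyruvate carboxylase refills the cycle.

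Values are normalized counts, that is, a gene's read counts after each library was divided by its own size factor, as whole numbers. They summed to between 14890264 and 20994246 per library, which rest on 14.0 to 22.3 M reads on genes. Wwtr1, which encodes TAZ, stood at 5594 and 4743 in WT SD, 2441 and 1957 in KO SD, 7121 and 6807 in WT HFD and 2060 and 2707 in KO HFD libraries. It was lower in the KO on either diet, by log2 changes of -1.24 on SD (limma adjusted p = 0.000969) and -1.56 on HFD (adjusted p = 3.11e-05). Yap1 was lower in the KO by 0.71 on SD (adjusted p = 0.0238), and its change on HFD of -0.42 did not pass (adjusted p = 0.0591). All 10 adipocyte markers were above 0 in every library. The 10 macrophage markers summed to 4890 and 4790 normalized counts in WT SD, 28838 and 16381 in KO SD, 2316 and 2208 in WT HFD and 30942 and 29490 in KO HFD libraries. The 2 WT HFD libraries differed little from each other in well-expressed genes. In genes with 1000 to 5000 normalized counts their squared difference was 5.78 times the Poisson expectation, against 17.1 in WT SD, 42.0 in KO SD and 55.6 in KO HFD. In genes with 5 to 20 normalized counts it was 5.81 in WT HFD, near the 5.94 of WT SD and the 5.78 of KO HFD, and 8.76 in KO SD. The labels treat these libraries as separate samples. They are given without a SD here, and beside the calls it is said which members, and how many list genes, lose them when these libraries count as 1 sample.

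On GRCm38, Pdk4 (ENSMUSG00000019577) lies on chromosome 6 from 5483351 to 5496309, Pdha1 (ENSMUSG00000031299) on chromosome X from 160122209 to 160138413 and Slc25a1 (ENSMUSG00000003528) on chromosome 16 from 17925211 to 17928219, each on the minus strand. Cs, Fh1, Idh3a, Mdh2, Ogdh and Suclg1 lie on chromosomes 10, 1, 9, 5, 11 and 6.

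The upstream sequences of Pdk4, the inhibitory kinase, and Slc25a1, the citrate carrier, are shown because these genes had the highest and the lowest interaction of genotype and diet described further on. They are read 5′ to 3′ on the gene's strand from RefSeq (GRCm38.p6), and capitals mark the E-box letters CACGTG. For Pdk4 the window chr6:5496310-5496528 on the minus strand leaves out the 31 bases next to the RefSeq start that the GENCODE model counts as part of the gene. For Slc25a1 the window is chr16:17928220-17928469 on the minus strand.
Pdk4: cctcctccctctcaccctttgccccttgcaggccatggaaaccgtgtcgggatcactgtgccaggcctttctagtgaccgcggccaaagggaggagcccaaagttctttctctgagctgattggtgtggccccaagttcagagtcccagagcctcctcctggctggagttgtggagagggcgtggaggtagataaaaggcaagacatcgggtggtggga
Slc25a1: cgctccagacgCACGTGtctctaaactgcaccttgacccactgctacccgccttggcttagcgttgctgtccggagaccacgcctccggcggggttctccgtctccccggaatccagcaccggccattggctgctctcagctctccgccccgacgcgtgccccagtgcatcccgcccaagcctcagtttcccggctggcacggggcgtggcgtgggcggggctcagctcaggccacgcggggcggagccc

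Of the 9 genes, 8 had an upstream sequence in the RefSeq table (Idh3a did not), and Ogdh had 6 annotated starts. The 250 bases before each start were searched on both strands for GGAATG, the core letters of TEAD sites, for AAGGTCA, which estrogen-related receptors bind, and for CACGTG. The E-box was found in Slc25a1, 239 to 234 bases before the start, and in the windows of 3 of the 6 Ogdh starts, of which 2 overlap and share 1 site, and 6.02% of all 32851 RefSeq promoters hold it. Neither GGAATG (12.6% of all promoters) nor AAGGTCA (4.08%) occurred in these windows for any of the 8 genes. A match or its absence describes letters only.

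The first question was how much RNA of each gene the adipocytes held. Per kilobase of exon, the carrier Slc25a1, Ogdh, Mdh2 and Pdha1 lay highest in WT SD adipocytes, with group means of 925, 961, 905 and 942 normalized counts per kb. The range of Slc25a1, at 787 and 1064, spanned those of the others. Ogdh at 960 and 963, Pdha1 at 924 and 959 and Mdh2 at 900 and 910 did not overlap each other. Cs followed at 710 per kb, and then came Idh3a at 422, Pdk4 at 377, Fh1 at 278 and Suclg1 at 243, where only the ranges of Fh1 and Suclg1 overlapped. Suclg1 stayed lowest in all 4 groups. Pdk4 was the third from the bottom of the 9 genes in WT SD, KO SD and WT HFD adipocytes, with means of 377, 506 and 560 per kb. In KO HFD adipocytes it stood second at 1429 per kb, within the range of Slc25a1 at 857 and 2019 and of Mdh2 at 922 and 1580, while Pdha1 stood at 650 per kb, against 1373 per kb in WT HFD adipocytes.

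**Figure D1:**
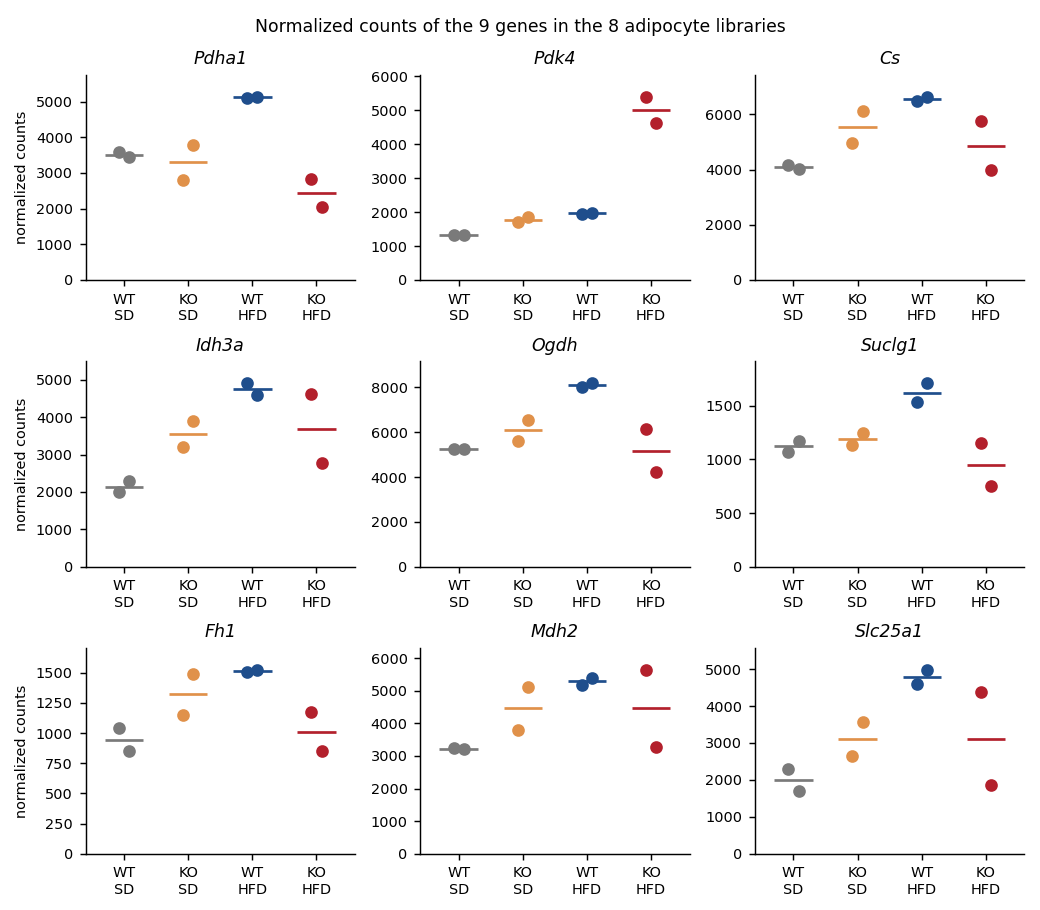
Normalized counts of the 9 genes in each of the 8 libraries, with 1 panel per gene, groups on the x axis, 1 point per library and a line at the group mean, each axis starting at 0. Pdk4 is high only in the 2 KO HFD libraries (5406 and 4630), and Pdha1 is lowest in a KO HFD library (2033).

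HFD feeding in WT mice was compared with SD to see how the pathway responds to the diet when YAP and TAZ are present. All 9 genes were higher in both WT HFD libraries than in both WT SD libraries, as were 31.4% of all genes tested, and 6 passed the test: Slc25a1, Idh3a, Mdh2, Fh1, Cs and Ogdh. A call required a limma adjusted p no greater than 0.05 together with an absolute log2 change no smaller than 0.59, limits that 18.0% of the 18800 genes tested met in this comparison (8.74% as higher and 9.22% as lower). The median log2 change of the 9 genes was 0.68, against -0.08 over all genes tested. When only genes with a mean of at least 50 were tested, the background median was 0.10, and 3186 of 12093 genes were called. The 10 adipocyte markers moved with the 9 genes, from sums of 211752 and 218344 to 384146 and 375938. The 7 endothelial markers summed to 30527 and 25127 in WT SD and 14892 and 15567 in WT HFD libraries, and the 8 fibroblast and progenitor markers to 35561 and 29572 and to 21918 and 22339. The part of these markers in the result was not tested. The RNA was measured in bulk, in which fewer cells of a type and less RNA per cell cannot be told apart.

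Among the enzymes that form and use citrate, Cs, the citrate synthase that joins acetyl-CoA to oxaloacetate, had 4164 and 4037 normalized counts in WT SD and 6482 and 6650 in WT HFD libraries, 1.60-fold higher (log2 0.68, SE 0.18, limma adjusted p = 0.0224). Idh3a encodes the catalytic subunit of the NAD-dependent isocitrate dehydrogenase. It rose from 1996 and 2282 to 4901 and 4580, or 2.22-fold (log2 1.15, SE 0.21, limma adjusted p = 0.00409). Slc25a1, the carrier that exports citrate, rose most of the 9, from 2302 and 1702 to 4592 and 4968 (log2 1.27, SE 0.31, limma adjusted p = 0.0144). These genes did not overlap between the diets.

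Further round the cycle, Ogdh, the first subunit of the 2-oxoglutarate dehydrogenase complex, went from 5253 and 5237 normalized counts to 8006 and 8182 (log2 0.63, limma adjusted p = 0.0297). Fh1, the fumarase, went from 1039 and 849 to 1509 and 1520 (log2 0.69, adjusted p = 0.029), and Mdh2, the mitochondrial malate dehydrogenase, from 3242 and 3206 to 5183 and 5393 (log2 0.71, adjusted p = 0.0406). Suclg1, the alpha subunit of succinyl-CoA ligase, had 1074 and 1171 on SD and 1532 and 1709 on HFD, a change of 0.53 that did not pass (adjusted p = 0.0756). At the entry point, Pdha1, the catalytic alpha subunit of pyruvate dehydrogenase, had 3580 and 3451 on SD and 5112 and 5142 on HFD (log2 0.54, adjusted p = 0.0569). Pdk4, the kinase that inactivates that enzyme, had 1326 and 1324 on SD and 1950 and 1982 on HFD. Its change of 0.57 had an adjusted p of 0.0187 but lay under the fold limit. With the WT HFD libraries counted as 1 sample, none of the 9 passed, and Idh3a came nearest (log2 1.15, limma adjusted p = 0.0549). The calls over all genes tested fell to 3.34% there. Scaled to the same total, where the median change of all genes tested moved from -0.08 to -0.48, Idh3a and Slc25a1 passed with 0.74 and 0.86, and the other 7 had positive changes of 0.12 to 0.30 that did not pass. Without a filter on low values or with quantile normalization only Idh3a passed, and the replicate number as a block ended the calls of Ogdh and Mdh2. Leaving out any 1 of the 4 WT libraries leaves 1 in its group, and calls were then lost among the 9 and over all genes tested. Without any 1 library the 9 changes stayed positive, from 0.45 for Suclg1 to 1.49 for Slc25a1.

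**Figure D2:**
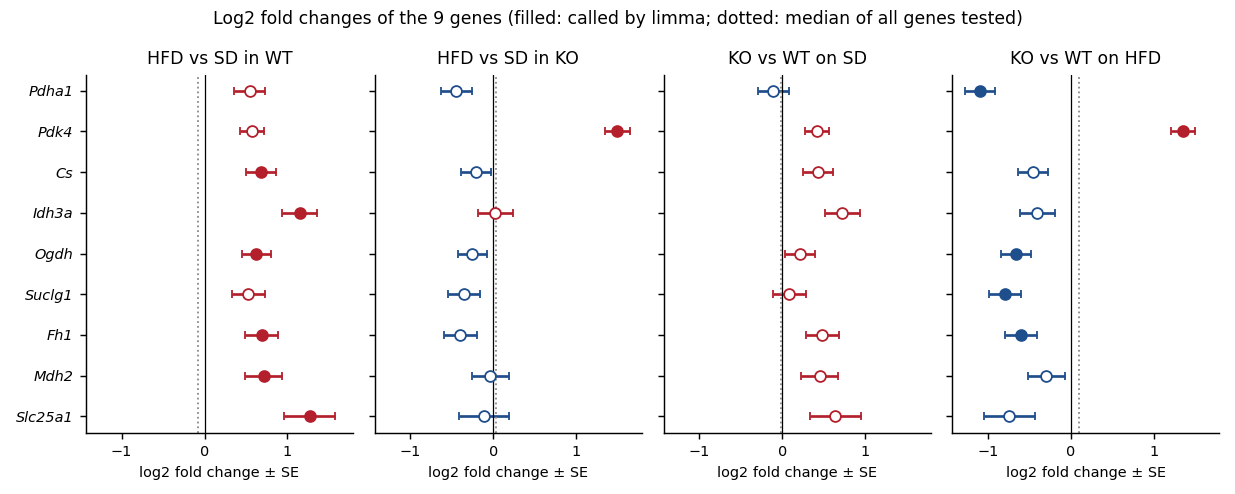
Log2 fold changes of the 9 genes in 4 comparisons on the x axis, with bars of 1 SE, filled points where limma called the gene and a dotted line at the median of all genes tested. For HFD against SD in WT all points lie right of 0. In KO against WT on HFD, Pdk4 alone lies right of 0 at 1.35 and Pdha1 lies farthest left at -1.10.

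The KO was compared with WT on HFD to see what the loss of YAP and TAZ changed under the diet. The inhibitory kinase Pdk4 was higher and its substrate subunit Pdha1 lower in both KO HFD libraries than in both WT HFD libraries. Of the 9 genes, 5 passed the test, Pdk4 as higher and Pdha1, Suclg1, Ogdh and Fh1 as lower, where 32.2% of all genes tested were called (17.1% higher and 15.1% lower). In both KO HFD libraries 6 of the 9 lay below both WT HFD libraries, as did 33.0% of all genes tested. The 8 genes other than Pdk4 all had negative fitted changes, with a median of -0.64 against 0.09 over all genes tested. When only genes with a mean of at least 50 were tested, the background median was -0.14, and 5068 of 12093 genes were called.

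Pdk4 had 1950 and 1982 normalized counts in WT HFD and 5406 and 4630 in KO HFD libraries, 2.54-fold higher (log2 1.35, SE 0.15, limma adjusted p = 2.35e-05). Pdha1 had 5112 and 5142 against 2821 and 2033, 0.467 times the WT level (log2 -1.10, SE 0.19, limma adjusted p = 0.000728). Pdk4 and Pdha1 were called in this comparison under each of the 12 other settings tried and without any 1 of the 8 libraries. The exons of Pdha1 share 16.1% of their bases with Map3k15 on the opposite strand, and whether the counting used strand is not given in the sources used here; Map3k15 had 27 to 82 normalized counts. The other 8 genes shared no exon bases with another annotated gene.

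The Ogdh complex turns 2-oxoglutarate into succinyl-CoA, and Ogdh had 8006 and 8182 normalized counts in WT HFD and 6163 and 4208 in KO HFD libraries (log2 -0.67, limma adjusted p = 0.0125). Suclg1, which acts next, had 1532 and 1709 against 1154 and 752 (log2 -0.80, adjusted p = 0.00773), and Fh1 had 1509 and 1520 against 1171 and 847 (log2 -0.60, adjusted p = 0.0312). Each of these 3 was lower in both KO libraries, and none of the 3 calls held with the WT HFD libraries as 1 sample (limma adjusted p of 0.091, 0.0614 and 0.149, with 18.6% of all genes called), without the second KO HFD library (0.0917, 0.0668 and 0.224) or after scaling to equal library totals (0.166, 0.0816 and 0.355).

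Cs stood at 6482 and 6650 in WT HFD and 5746 and 3982 in KO HFD libraries (log2 -0.46, limma adjusted p = 0.0697), and Slc25a1 at 4592 and 4968 against 4370 and 1855 (log2 -0.75, adjusted p = 0.0775). Both were lower in each KO library without passing. Idh3a, at 4901 and 4580 against 4608 and 2765, and Mdh2, at 5183 and 5393 against 5629 and 3285, overlapped between the genotypes, with changes of -0.41 (adjusted p = 0.155) and -0.30 (adjusted p = 0.324). The 95% intervals of these changes ran from -0.87 to 0.05 for Idh3a and from -0.78 to 0.18 for Mdh2. Among the 9 genes the 2 KO HFD libraries differed most in Slc25a1, and the second was the lower in all 9. Without the first KO HFD library, which leaves 1 in the group, Slc25a1 stood at -1.36. Without the second it stood at -0.13, and Mdh2 turned to 0.09. More of the 9 were called without the first, and fewer without the second or without either WT HFD library (limma). Over all genes tested, calls were fewer in each of these cases. The 10 adipocyte markers showed the same order, with sums of 190080 in the first and 95513 in the second KO HFD library against 384146 and 375938 in WT HFD, and their part in these differences was not tested. Divided by the adipocyte marker sum, the summed counts of the 8 genes other than Pdk4 were 0.0971 and 0.102 in WT HFD and 0.167 and 0.207 in KO HFD libraries, so this ratio was higher in both KO libraries. It was higher in the KO on SD as well, at 0.107 and 0.1005 in WT SD and 0.149 and 0.129 in KO SD libraries. The 8 fibroblast and progenitor markers summed to 21918 and 22339 in WT HFD and to 69302 and 77781 in KO HFD libraries, and the 7 endothelial markers to 14892 and 15567 and to 19932 and 30509. The macrophage marker sums, 2316 and 2208 in WT HFD, were 30942 and 29490 in KO HFD libraries, and the part of these 3 lists in the changes was not tested.

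The RNA of kinase and enzyme can also be compared inside each library, where no size factor enters. These are RNA counts of bulk samples, without a measure of protein or enzyme activity, and the part of the cell mix was not tested. The ratio of Pdk4 to Pdha1 normalized counts was 0.370 and 0.384 in WT SD, 0.604 and 0.489 in KO SD, 0.382 and 0.386 in WT HFD and 1.92 and 2.28 in KO HFD libraries. The 2 KO HFD libraries lay above the other 6, and the 2 KO SD libraries lay above those of both WT groups. An exact permutation test of 2 against 2 libraries cannot give a p below 0.333, so none is given for the ratio, which was chosen after the data were seen. Among the 4 pyruvate dehydrogenase kinases, Pdk4 made up 55.8 to 61.2% of the summed counts per kb in the other 6 libraries and 83.8 and 81.6% in the KO HFD libraries.

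**Figure D3:**
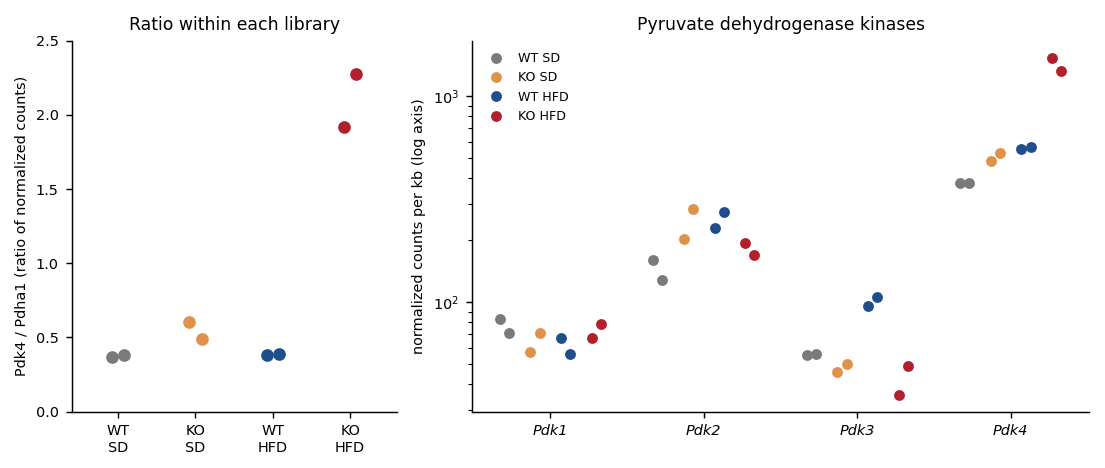
Left, the ratio of Pdk4 to Pdha1 normalized counts in each library by group, on an axis from 0. Right, normalized counts per kb of exon of the 4 pyruvate dehydrogenase kinases on a log axis, 1 point per library in the order WT SD, KO SD, WT HFD and KO HFD, where the 2 KO HFD points of Pdk4 (1540 and 1319 per kb) lie above all others.

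None of the other 3 kinases was called higher in the KO on HFD. Pdk3 had 142 and 144 normalized counts in WT SD, 117 and 128 in KO SD, 245 and 272 in WT HFD and 91 and 126 in KO HFD libraries. It was called higher on HFD in WT mice (log2 0.85, limma adjusted p = 0.0498) and lower in the KO on HFD (log2 -1.26, adjusted p = 0.00402). With the WT HFD pair as 1 sample the first call ended (adjusted p = 0.212) and the second held (0.0367). Pdk2 had 508 and 407, 642 and 894, 722 and 865, and 614 and 534 in the same order, and was called higher on HFD in WT mice (log2 0.80, limma adjusted p = 0.0206), a call that ended with that pair as 1 sample (0.128). Pdk1 stayed between 437 and 643 normalized counts in the 8 libraries, and no comparison called it.

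On SD, the KO was compared with WT to see whether the loss of YAP and TAZ alone moved these genes. None of the 9 passed by limma, where 4.71% of all genes tested were called (3.21% higher and 1.5% lower), and 4 had an unadjusted p under 0.05, as 17.0% of all genes did: Cs, Idh3a, Fh1 and Pdk4. No other tool was run. Idh3a had the largest change, with 1996 and 2282 normalized counts in WT SD and 3190 and 3884 in KO SD libraries (log2 0.72, SE 0.21, limma adjusted p = 0.0805). Pdk4 had 1326 and 1324 against 1694 and 1856 (log2 0.42, adjusted p = 0.148), and its 95% interval ran from 0.10 to 0.74. Slc25a1, Mdh2, Cs, Fh1 and Ogdh were also higher in both KO SD libraries than in both WT SD libraries, by 0.64, 0.45, 0.43, 0.48 and 0.21, so that 7 of the 9 lay above, against 22.8% of all genes tested. Suclg1, with 1074 and 1171 against 1135 and 1249, and Pdha1, with 3580 and 3451 against 2805 and 3793, overlapped. Idh3a passed when either KO HFD library was left out of the fit. The macrophage marker sums of the KO SD libraries given above lay above those of WT SD, and their part was not tested.

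HFD was then compared with SD within the KO. Pdk4 was the only 1 of the 9 that passed, where 1.07% of all genes tested were called (0.383% as higher and 0.691% as lower). It had 1694 and 1856 normalized counts in KO SD and 5406 and 4630 in KO HFD libraries, 2.82-fold higher (log2 1.496, SE 0.15, limma adjusted p = 0.000859), and the call was lost with only these 2 groups in the fit (log2 1.496, adjusted p = 0.0905), where 0.0% of all genes tested were called by limma and 2098 of 19057 had an unadjusted p under 0.05. The fibroblast and progenitor markers summed to 51371 and 32605 in KO SD and 69302 and 77781 in KO HFD libraries, the endothelial markers to 23513 and 13020 and to 19932 and 30509, and the adipocyte markers to 169777 and 245934 and to 190080 and 95513, and their part in the change of Pdk4 was not tested. The other 8 overlapped between the diets. Their changes lay between -0.45 for Pdha1, which had 2805 and 3793 on SD and 2821 and 2033 on HFD, and 0.02 for Idh3a, with 3190 and 3884 against 4608 and 2765. For Idh3a the 95% interval of the change ran from -0.44 to 0.48.

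The interaction term asks whether the effect of the KO differed between the diets. It was called for 8 of the 9 genes, where 17.4% of all genes tested were called (8.69% positive and 8.73% negative), positive for Pdk4 and negative for Cs, Idh3a, Ogdh, Suclg1, Fh1, Pdha1 and Slc25a1. When only genes with a mean of at least 50 were tested, 3334 of 12093 genes were called. Mdh2 did not pass (log2 -0.75, limma adjusted p = 0.115). Slc25a1 had the largest term (log2 -1.38, SE 0.43, limma adjusted p = 0.0453), followed by Idh3a at -1.13 (adjusted p = 0.0242) and Fh1 at -1.09 (adjusted p = 0.0212). The term of Pdk4 was 0.93 (SE 0.21, limma adjusted p = 0.0129). None of these 8 calls held when the WT HFD libraries counted as 1 sample, where 3.58% of all genes were called (Pdk4: log2 0.93, adjusted p = 0.0726), and Pdk4 alone held after scaling to equal totals (1.36) or to equal upper quartiles (1.47). With the replicate number as a block, 4 of the 9 passed, and the calls over all genes tested fell from 3274 to 2568. When any 1 of the 4 WT libraries, the second KO SD or the second KO HFD library was left out, at most 1 passed, and without the first KO HFD library all 9 did.

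The rest of the pathway was read from a list of 37 further genes in 4 roles. On HFD, 18 of the 37 were called in KO against WT, 3 higher and 15 lower, with a median change of -0.49, where 17.1% of all genes tested were called higher and 15.1% lower. Of the 18 calls, 10 held when the WT HFD pair was taken as 1 sample, and 8 ended, those of Dld, Pdhx, Pdpr, Sucla2, Sdhd, Sdhc, Pcx and 1 further gene of citrate use (limma adjusted p of 0.057 to 0.115). In pyruvate entry and the dehydrogenase complex, 2 of 6 were lower, with Dld, the shared dihydrolipoamide dehydrogenase subunit, farthest down at -0.73 (limma adjusted p = 0.0058) and Pdhx, which binds Dld to the complex, at -0.71. The pyruvate carrier genes Mpc1 and Mpc2 had changes of -0.41 and -0.33 and did not pass. Among the regulators of the complex, 3 of 6 were lower and none higher: Pdk3 at -1.26, and the phosphatase genes Pdp2 at -1.23 and Pdpr, a regulatory subunit, at -0.69. Among the other citrate cycle genes, 4 of 11 were lower, led by Idh2, the NADP-dependent mitochondrial isocitrate dehydrogenase, which had 2223 and 2293 normalized counts in WT HFD and 1221 and 983 in KO HFD libraries (log2 -1.04, adjusted p = 0.000503). The other 3 were Sucla2 at -0.77, Sdhd at -0.75 and Sdhc at -0.64, subunits of succinyl-CoA ligase and succinate dehydrogenase. Sdha, the flavoprotein subunit of succinate dehydrogenase, had -0.59 and was not called, since it lay just under the fold limit.

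Among the genes of citrate use, anaplerosis and shuttles, 3 of 14 were higher and 6 lower, against the 17.1% and 15.1% of all genes. Acly, which splits citrate in the cytosol, had 4608 and 4782 normalized counts in WT SD, 4234 and 5563 in KO SD, 14344 and 14930 in WT HFD and 5484 and 3834 in KO HFD libraries. Thus its counts stood apart in WT HFD adipocytes, with a change of 1.64 for HFD in WT (limma adjusted p = 0.000274) and of -1.67 for the KO on HFD (adjusted p = 3.15e-05). Me1, the cytosolic malic enzyme that yields NADPH, had 9643 and 10011 in WT HFD and 4050 and 1716 in KO HFD libraries (log2 -1.90, adjusted p = 0.000353). Pcx, the pyruvate carboxylase, had 23544 and 24065 against 15502 and 7905 (log2 -1.10, adjusted p = 0.00726). The 3 called higher included Slc25a13, a mitochondrial aspartate/glutamate carrier, with 11 and 0 normalized counts in WT HFD and 197 and 167 in KO HFD libraries. A value of 0 allows up to 3 counts, and the fitted change of 5.72 (limma adjusted p = 0.000474) depends on the pseudocount at such low counts. It had 17 and 37 in WT SD and 48 and 70 in KO SD libraries. The other 2 higher genes were Got1, the cytosolic aspartate aminotransferase, with 31 and 90 against 322 and 239 (log2 2.37), and Slc25a12, a second aspartate/glutamate carrier, with 82 and 68 against 202 and 227 (log2 1.51). Pdhx, Pdp2, Pdpr, Sucla2, Sdhc, Got1 and Slc25a12 are named after their values were seen.

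**Figure D4:**
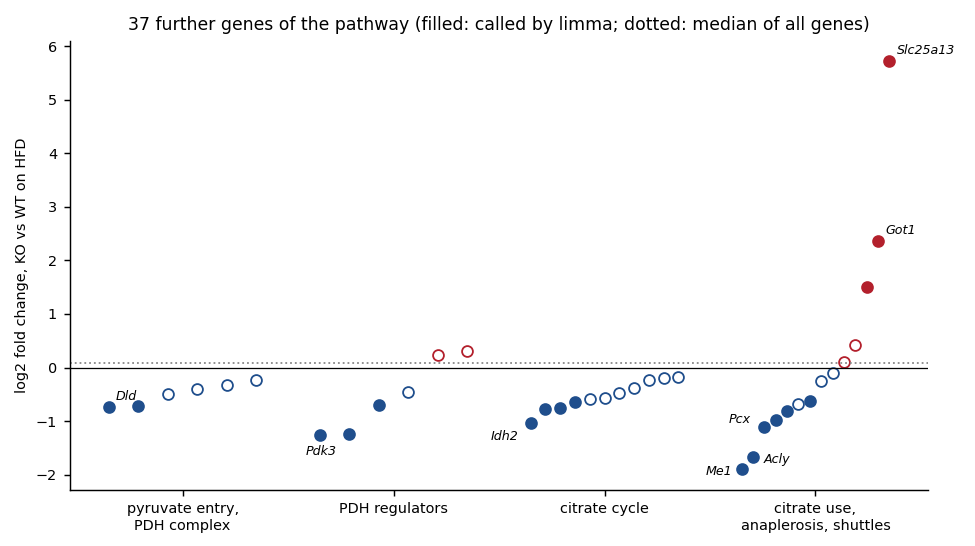
Log2 fold changes of KO against WT on HFD for the 37 further genes, ordered within 4 roles on the x axis, filled where limma called them, with a dotted line at the median of all genes (0.09). The called genes lie below 0 except for 3 genes of citrate use, anaplerosis and shuttles, with Slc25a13 highest at 5.72.

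For HFD in WT, 14 of the 37 genes were called, 13 higher and 1 lower (Slc25a13, at -2.92), where 8.74% of all genes tested were called higher and 9.22% lower. Of these calls only those of Acly and Me1 held with the WT HFD pair as 1 sample (limma adjusted p of 0.0121 and 0.0449). The largest rises by role were those of Dlat, the acetyltransferase subunit of the complex (log2 0.72), Pdk3 (0.85), Idh2 (0.81) and Me1 (1.66). None of the 37 passed for the KO on SD, where 8 had an unadjusted p under 0.05 (17.0% of all genes), or for HFD in the KO, where 4 did (15.5% of all genes; limma, no other tool run). The interaction was called for 14, where 8.69% of all genes tested were called positive and 8.73% negative. Slc25a13 was the 1 positive call, at 4.55, and the largest of the 13 negative terms by role were those of Me1 at -1.84, Pdk2 at -1.20, Dld at -1.16 and Sdhd, a membrane anchor subunit of succinate dehydrogenase, at -1.16. With the WT HFD pair as 1 sample only Slc25a13 and Acly were still called (limma adjusted p of 0.0381 and 0.0296). The table also marks 30 genes with the KEGG citrate cycle term, a list chosen after the data were seen, which holds 7 of the 9 members. Of its 29 genes tested, 16 were lower and none higher in KO against WT on HFD, with a median of -0.63, and 14 were higher and 1 lower for HFD in WT. The shares over all genes tested were 15.1% lower and 17.1% higher in the first and 8.74% higher and 9.22% lower in the second comparison. Counting the WT HFD pair as 1 sample left 6 of the 16 calls in the first and 1 of the 15 in the second. Csl, the remaining one, lay under the filter on low values.

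Over the 8 libraries the genes other than Pdk4 were positively correlated in pairs, least so Pdha1 with Idh3a (r = 0.42) and with Mdh2 (0.51). Pearson's r of log2 values lay between 0.42 and 0.96 for the 28 pairs without Pdk4 (median 0.87), and between -0.55 and 0.40 for the 8 pairs with Pdk4 (median -0.02), where the lowest was with Pdha1. These are descriptions over 8 libraries of 4 groups that share size factors and cell mix. Of 12093 genes searched, those closest to Cs were Pmpcb (r = 0.993), Acad11 and Atp5a1 (both 0.992). Pmpcb was also near Slc25a1 (r = 0.979), behind Tbc1d20 (0.989), and ahead of Alkbh3 (0.978). Closest to Pdk4 were Dip2c (0.9504), Bcl2l1 (0.9499) and Ammecr1 (0.945). Dip2c had 934 and 940 normalized counts in WT SD and 1461 and 1444 in KO HFD libraries, a narrower span than that of Pdk4.

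How far the changes on HFD lay from 0 depended on the scaling. Scaling to the same total moved the median change of all genes tested from 0.09 to 0.48 and upper-quartile scaling moved it to 0.47. With these, Pdk4 stood at 1.73 and 1.72, Pdha1 at -0.71 and -0.72, and Cs at -0.07 and -0.08, and Mdh2 turned to 0.09 and 0.08 without being called.

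**Figure D5:**
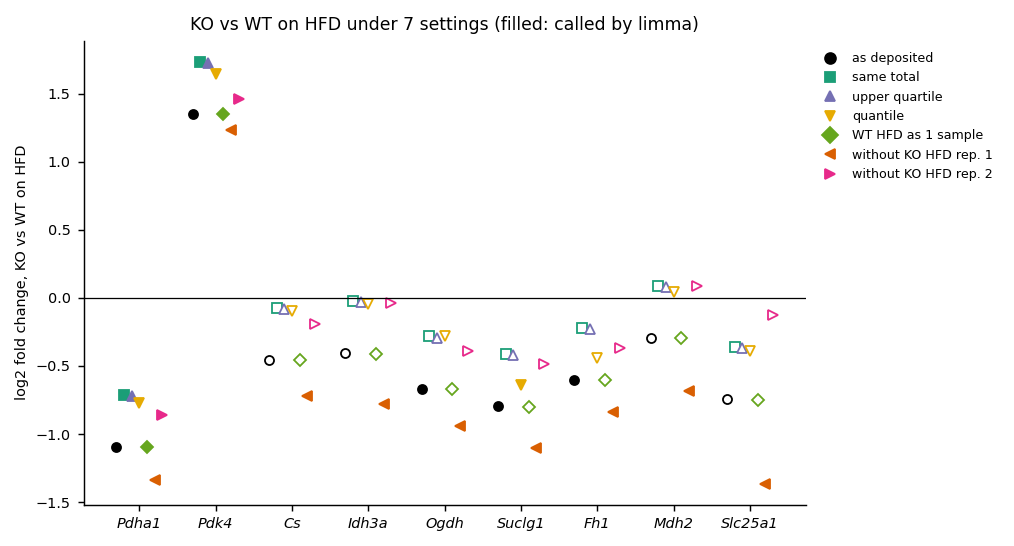
Log2 fold changes of the 9 genes in KO against WT on HFD under 7 settings, 1 marker shape per setting, filled where limma called the gene. Pdk4 and Pdha1 are filled under all 7, Pdk4 from 1.24 to 1.73 and Pdha1 from -1.33 to -0.71, while the other 7 genes are open under the total and upper-quartile scalings.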

How the data were processed

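White adipocytes of 4 groups (WT SD, KO SD, WT HFD, KO HFD) were profiled by RNA-seq, with 2 libraries per group. Per the labels and the study's methods, ribosomal RNA was depleted and a SMARTer Stranded kit was used. The authors aligned the reads to GRCm38 (mm10) with STAR 2.5.2b and counted them per gene with featureCounts 1.5.1. The submitters' processing notes also name DESeq2 1.14.1. The deposited values are a score rather than counts: the authors divided each library's gene counts by its size factor and rounded the quotients. Other columns hold the authors' own comparisons and were not used. The value of 1 read was estimated from which whole numbers below 600 occur (0.795 to 1.14 normalized counts), and the total divided by it gave the depth. Because of the rounding, whole reads could not be recovered and no count model was run. Reads carry no molecular identifiers, so the depth covers counting error only.

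Genes with a mean of at least 5 (18800 of 30387) were tested with limma 3.58.1 in R 4.3.3 on log2(value + 1), which understates changes of low genes. One fit held 4 group means over 8 libraries, with 4 residual and 8.59 prior degrees of freedom, and eBayes with trend. Adjusted p-values are Benjamini-Hochberg over all genes tested. Calls needed an adjusted p of at most 0.05 and an absolute log2 change of at least 0.59. The fit was tested on simulated data. Further software was numpy 2.4.6, pandas 2.3.3 and matplotlib 3.10.9 under Python 3.11.15. Exon lengths and overlaps came from GENCODE vM21 (30259 identifiers found).

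The 9 members and all lists were chosen with earlier results of these data known. Of the 37 list genes 10 were to be named in any case, of which 1 is not reported here, and per role and comparison the called gene with the largest change in each direction. Another 7 were named after their values were seen. Alternatives were other pseudocounts, filters, scalings, fold limits, fits and a replicate block, and leaving out each library. Counting the WT HFD libraries as 1 sample was also planned. A crossed block, the Pdk4 to Pdha1 ratio and the KEGG list were added after seeing the data. Over 12093 genes, the differences between replicates 1 and 2 of 2 groups correlated from -0.30 to 0.11, so the numbers were not taken to pair samples.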

Additional observations from a re-analysis of the deposited data

Results flagged for a closer look

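For 8 of the 9 genes the KO effect was called different between the diets, as it was for 17.4% of all genes tested. It is given as the change on HFD minus that on SD (limma, log2 scale). Only Pdk4 stayed called after scaling to the same total or the upper quartile, with quantile normalization or without a filter on low values. The difference was 0.93 for Pdk4, whose KO against WT change was 0.42 on SD and 1.35 on HFD. It was -1.38 for Slc25a1 (0.64 and -0.75), -1.13 for Idh3a (0.72 and -0.41), -1.09 for Fh1 (0.48 and -0.60) and -0.99 for Pdha1 (-0.11 and -1.10). For Cs the difference was -0.89 (0.43 and -0.46), and for Ogdh and Suclg1 it was -0.88 in both cases (0.21 and -0.67, and 0.09 and -0.80). Each of these differences rests on 2 libraries per group, and its call ended when the WT HFD libraries counted as 1 sample (limma adjusted p of 0.0726 for Pdk4 and 0.101 for Pdha1).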

How the results depend on the processing

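Of the 9 genes, Pdk4 and Pdha1 kept their direction and their call in KO against WT on HFD under all 12 other settings and without any 1 library, Pdk4 between 1.24 and 1.73 and Pdha1 between -1.33 and -0.71. Over 9 genes and 5 comparisons, 717 of the changes under another setting kept direction and call status, 157 lost the call, 9 gained one and 17, none of them called, changed sign. The cause was not tested.

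In KO against WT on HFD, 5 genes and 18 of the 37 list genes were called. These became 2 and 11 with scaling to the same total, 2 and 10 with the upper quartile, 3 and 11 with quantile normalization and 2 and 10 when the WT HFD pair counted as 1 sample, and 2 to 9 and 9 to 25 without 1 library. On SD, 0 and 0 became 1 gene (same total) and 1 list gene (quantile normalization, WT HFD as 1 sample, or only the 2 groups compared), with 0 to 1 of each without 1 library. For HFD in WT, 6 and 14 became 1 and 4 without a filter, 2 and 5 (same total), 2 and 3 (upper quartile), 1 and 2 (quantile) and 0 and 2 (WT HFD as 1 sample), with 0 to 6 and 1 to 15 without 1 library. For HFD in the KO, the 1 call became 0 with only the 2 groups compared, and 0 to 3 list genes passed without 1 library. The interaction calls, 8 and 14, became 1 and 1 without a filter, 1 and 8 (same total), 1 and 6 (upper quartile), 1 and 6 (quantile) and 0 and 2 (WT HFD as 1 sample), with 0 to 9 and 1 to 24 without 1 library. Over all genes tested, the 6053 calls in KO against WT on HFD became 5006 (no filter), 5987 (same total), 5942 (upper quartile), 5158 (quantile) and 3521 (WT HFD as 1 sample). In that order, the 3377 for HFD in WT became 1701, 4038, 3601, 2186 and 632, and the 3274 of the interaction 721, 3228, 3535, 2213 and 678. For the list, fewer genes were called on HFD without the second KO HFD library or either WT HFD library, and more without the first KO HFD library. Over all genes tested, calls were fewer in each of these cases, where 1 library is left in a group.

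Signs changed in KO against WT on HFD for Mdh2 (0.0876 with the same total, 0.0766 upper quartile, 0.0454 quantile, -0.69 to 0.0904 without 1 library), and on SD for Suclg1 (-0.0782, upper quartile) and Pdha1 (-0.33 to 0.11 without 1 library). For HFD in the KO they changed with the upper quartile for Cs (0.0059), Mdh2 (0.18) and Slc25a1 (0.0984). Without 1 library the changes for HFD in the KO ran from -0.47 to 0.0585 for Cs, -0.35 to 0.39 for Idh3a, -0.53 to 0.0229 for Ogdh, -0.42 to 0.35 for Mdh2 and -0.73 to 0.50 for Slc25a1, the lowest value without the first KO HFD library and the highest without the second.

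The replicate numbers share no source in the labels. With them as a block, 4 genes kept an interaction call, against 8 without it. The block also ended the calls of Ogdh (adjusted p = 0.0508) and Mdh2 (0.0621) for HFD in WT, and moved the number of members or list genes called in the other comparisons by no more than 1.5 times. Over all genes tested it moved the calls for HFD in the KO from 202 to 112. Those for HFD in WT went from 3377 to 2935, and those of the interaction from 3274 to 2568. The replicate differences of KO SD and KO HFD correlated at -0.30, and with that pairing crossed 1 gene was called for HFD in the KO, as without a block. Among the values given, only the 0 of Slc25a13 in a WT HFD library lies at the limit that depth sets.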
